A study of Rattus norvegicus with 30 samples.

Results

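The genes of the proteasome, the cell's main machine for breaking down proteins, were followed in 30 bulk RNA libraries from rat dorsal hippocampus. Members were the rows of the count table whose symbol begins with Psma to Psmg and a digit and whose counts summed over all libraries to 300 or more. Psmb8, Psmb9 and Psmb10, the subunits of the immune form, were left out by name. The symbol pattern found 50 rows, 3 were those immune subunits, 3 fell under the sum, and 44 of 17455 rows were members. All 44 passed the filter on low counts and were tested among 12547 genes. The member nearest above the sum was Psmb11 with 616 counts, and the row nearest below it was Psma8 with 62.

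The series set TgF344-AD rats, labelled alzheimer, against wildtype rats, on a western diet or on standard chow, in females and males. TgF344-AD is a transgenic line of the Fischer strain with a mutant human APP among its transgenes, which the prion promoter of the mouse expresses broadly in the brain. The 8 groups were female alzheimer western (n = 3), female wildtype western (n = 3), female alzheimer chow (n = 4), female wildtype chow (n = 4), male alzheimer western (n = 4), male wildtype western (n = 4), male alzheimer chow (n = 4) and male wildtype chow (n = 4). The labels give no age, no diet composition and no time on diet, and they place 14 libraries in cohort 1 and 16 in cohort 2, with both cohorts in every group.

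The proteasome is a barrel of stacked rings closed by caps. The alpha subunits (Psma) form the outer rings and the gate, and the beta subunits (Psmb) form the inner rings, some of which cut the protein chain. The regulatory cap binds proteins tagged with ubiquitin, removes the tag, and unfolds them with a ring of ATPases (Psmc) held among other cap subunits (Psmd). Other activators (Psme) can open the barrel without ubiquitin, and dedicated chaperones (Psmg and a few Psmd genes) put the parts together. In neurons the proteasome sets protein turnover at synapses, and it has long been studied in Alzheimer's disease because aggregated proteins are poor substrates for it.

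By role, the members comprised 7 alpha genes, 6 beta genes, 6 ATPases, 11 other cap subunits, 5 activators or inhibitors (Psme1 to Psme4 and Psmf1) and 6 assembly chaperones (Psmd5, Psmd9, Psmd10, Psmg1, Psmg2 and Psmg4). A further member, Psmb11, encodes the beta subunit known from the thymus and had only 5 to 39 counts per library. The last 2 members match by symbol and are no part of the particle: Psmc3ip is a recombination factor, and Psme3ip1 encodes a protein that binds an activator. Psmb6, which encodes a catalytic beta subunit that every standard proteasome carries, had 14 counts in all, with 0 in 21 libraries. Its copy Psmb6l1, listed as LOC100360846, had 215 counts, and Pomp, the factor that matures the core, had 191. The sources used here do not give how reads that match several places were counted, and these low rows were not read as low expression.

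These 3 promoters are shown because the results turn on Psme1 and Psmc5, the members called between genotypes, and on Psme2, the gene beside Psme1 whose protein joins that of Psme1 in the same activator ring. Each is the stretch of 250 bases before the start of the gene in RefSeq's table for GRCr8, read 5′ to 3′ on the strand of the gene. They lie at chr15:33038721-33038970 on the plus strand for Psme1, chr15:33052752-33053001 on the minus strand for Psme2 and chr10:91687303-91687552 on the plus strand for Psmc5. Capitals mark a match to the core of the interferon-stimulated element (GAAA, any 2 bases, GAAA). The lower-case promoters hold none of the 3 patterns searched.
Psme1: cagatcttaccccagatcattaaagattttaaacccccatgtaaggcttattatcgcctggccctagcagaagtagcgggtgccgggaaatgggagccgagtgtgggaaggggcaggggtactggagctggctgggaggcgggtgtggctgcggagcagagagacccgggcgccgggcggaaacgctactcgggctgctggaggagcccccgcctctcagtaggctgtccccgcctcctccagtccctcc
Psme2: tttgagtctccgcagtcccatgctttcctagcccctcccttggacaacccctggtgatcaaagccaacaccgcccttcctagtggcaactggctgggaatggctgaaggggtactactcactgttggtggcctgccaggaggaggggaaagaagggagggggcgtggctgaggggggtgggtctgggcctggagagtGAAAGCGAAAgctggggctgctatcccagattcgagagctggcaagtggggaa
Psmc5: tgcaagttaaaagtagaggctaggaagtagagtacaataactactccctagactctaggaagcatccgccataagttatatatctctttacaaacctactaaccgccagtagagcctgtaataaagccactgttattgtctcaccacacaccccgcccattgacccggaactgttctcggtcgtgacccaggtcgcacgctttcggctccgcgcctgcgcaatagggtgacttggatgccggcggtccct
The match in the Psme2 promoter begins 53 bases before the start. In windows that also take in 50 bases after the start, searched on both strands, the interferon-stimulated core was found in 5 of the 39 members with an entry (12.8%), against 3.77% of 27457 promoters. TGACNNNGC, the core of the antioxidant response element that Nfe2l1 and Nfe2l2 bind, was in 7 of 39 members (17.9%), against 12.2% of all. CCAAT was in 20 of 39 (51.3%), against 37.7% of all, in 9 of 12 core genes (75.0%), 5 of 14 cap genes (35.7%), 2 of 5 activators and inhibitors (40.0%) and 2 of 6 chaperones (33.3%). No pattern searched is contained in another. These matches describe letters and not sites in use. Psma7, Psmb11, Psmd6, Psmd12 and Psmd14 had no entry.

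Library totals ran from 13.9 to 31.4 M counts with a median of 17.8 M (M for mega). App, the check of the genotype label, averaged 3294 ± 76.3 CPM (counts per M after TMM scaling) in alzheimer rats and 1672 ± 52.7 CPM in wildtype rats (SD, n = 15 each), with no overlap. Prox1 and Calb1, markers of the granule cells of the dentate gyrus, summed to 122 to 162 CPM in alzheimer rats and 116 to 149 CPM in wildtype rats, so they were present in every library. Choroid plexus markers, which come with dissection, summed to 2.36 to 61.2 CPM in alzheimer rats and 2.65 to 34.6 CPM in wildtype rats. The members together took 0.426 ± 0.00972% of the counts (SD, n = 30), and the lowest library had 0.398% and the highest 0.446%. Among members, and without allowance for transcript length, Psmd2, a cap scaffold, drew the most counts at 279 ± 7.29 CPM, and Psmb11 the fewest at 1.12 ± 0.364 CPM.

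Between genotypes the proteasome genes differed little. Of 44 members, 2 fell in alzheimer rats and 0 rose (edgeR's quasi-likelihood F test, Benjamini-Hochberg adjusted over all tested genes, called at adjusted p under 0.05). In the same comparison 8.03% of all tested genes were called, and 3.89% were called lower. At an unadjusted p under 0.05, 2 members were higher and 6 lower, against 1455 higher and 1337 lower of the 12547 tested genes. DESeq2 called 2 members and limma-voom 3. The median log2 fold change was −0.013 over the members, 31 of them negative, against 0.0020 over all tested genes, with 6136 negative. The 95% interval lay within ±0.2 log2 for 42 of the 44 members (95.5%), against 67.1% of all tested genes. These shares make no allowance for the level of the genes compared, on which the width of an interval depends. By role, all 6 beta genes, 6 of 7 alpha genes, 5 of 6 ATPases and 5 of 6 chaperones had negative estimates, while 4 of the 5 activators and inhibitors had positive ones, and the exception was Psme1. The members and all tested genes were counted in the same fit, and the lists carry no test of their own. Signs of members measured in the same libraries are not independent, here and in the comparisons below.

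Psme1 encodes the alpha subunit of the interferon-inducible activator ring. It had 29.2 CPM in the lowest, 33.9 in the median and 37.9 in the highest of the 15 alzheimer libraries, against 33.3, 36.7 and 41.0 CPM in the 15 wildtype libraries. The groups overlapped, 7 alzheimer libraries lay under every wildtype library and 4 wildtype libraries above every alzheimer library. The means were 33.5 ± 2.40 CPM in alzheimer rats and 36.8 ± 1.89 CPM in wildtype rats (SD, n = 15 each). The log2 fold change was −0.13 ± 0.033 (SE; 95% interval −0.20 to −0.062; adjusted p = 0.0115), and 13 of 15 alzheimer libraries lay under the wildtype mean of their sex and diet. It was −0.11 in cohort 1 (adjusted p = 0.446) and −0.13 in cohort 2 (adjusted p = 0.149), so neither cohort alone gave the call. With 2 surrogate variables in the fit it was −0.089 (adjusted p = 0.122), and the call was lost there too. By group, the means were 34.7 ± 2.97 CPM in alzheimer females and 37.1 ± 1.70 CPM in wildtype females on western diet (n = 3 each), and 34.6 ± 1.38 CPM in alzheimer females and 37.8 ± 2.29 CPM in wildtype females on chow (n = 4 each). In males they were 31.8 ± 2.45 CPM in alzheimer rats and 36.9 ± 1.69 CPM in wildtype rats on western diet, and 33.4 ± 2.48 CPM in alzheimer rats and 35.3 ± 1.47 CPM in wildtype rats on chow (SD, n = 4 each). The alzheimer mean was the lower in each of these pairs. RefSeq names copies of Psme1 that could share reads, and Emc9 overlaps it with a log2 fold change of −0.0010 (adjusted p = 0.993), so the count of Psme1 is uncertain to that extent.

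Psme2 encodes the beta subunit of the same ring and lies next to Psme1. RefSeq names 3 pseudogenes of Psme2, so its count is uncertain in the same way. It averaged 24.9 ± 1.53 CPM in alzheimer rats and 24.7 ± 2.17 CPM in wildtype rats (SD, n = 15 each). Its log2 fold change was 0.020 ± 0.038 (95% interval −0.058 to 0.098; adjusted p = 0.821), and the difference between the changes of Psme1 and Psme2 was not tested. Psme3, the activator found in the nucleus, stood at 0.038 ± 0.024 (adjusted p = 0.365), Psme4, an activator tied to histone breakdown, at 0.066 ± 0.032 (adjusted p = 0.229), and Psmf1, which inhibits the core in the test tube, at 0.055 ± 0.027 (adjusted p = 0.216). None of these 4 passed the test, and the upper bounds of their 95% intervals ran from 0.086 to 0.13 log2.

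Psmc5 encodes an ATPase of the unfolding ring. It had 182 CPM in the lowest, 197 in the median and 209.8 in the highest of the 15 alzheimer libraries, against 188, 205 and 216 CPM in the wildtype libraries. The groups overlapped, with 4 alzheimer libraries under every wildtype library and 5 wildtype libraries above every alzheimer library. The means were 196 ± 8.46 CPM in alzheimer rats and 204 ± 8.77 CPM in wildtype rats (SD, n = 15 each), a log2 fold change of −0.066 ± 0.018 (95% interval −0.10 to −0.029; adjusted p = 0.0181), lower in 12 of 15. It was −0.083 in cohort 1 (adjusted p = 0.351) and −0.055 in cohort 2 (adjusted p = 0.304), and −0.055 with 2 surrogate variables in the fit (adjusted p = 0.0863), and the call was lost in each of these. Of the other ATPases, Psmc4 stood at −0.061 ± 0.027 (adjusted p = 0.161), Psmc1 at −0.028 ± 0.019, Psmc3 at −0.011 ± 0.022, Psmc2 at −0.0034 ± 0.023 and Psmc6 at 0.011 ± 0.025, and none of the 5 was called. Psmc5 has no named copies in RefSeq's table, but LOC120095430 overlaps it and was not tested, so its count is also uncertain to that extent. Of its neighbours, Ddx42 was called higher at 0.075 ± 0.022 (adjusted p = 0.0263) and Tcam1 at 0.44 ± 0.091 (adjusted p = 0.00202). Ftsj3 and Smarcd2 were not called.

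**Figure D1:**
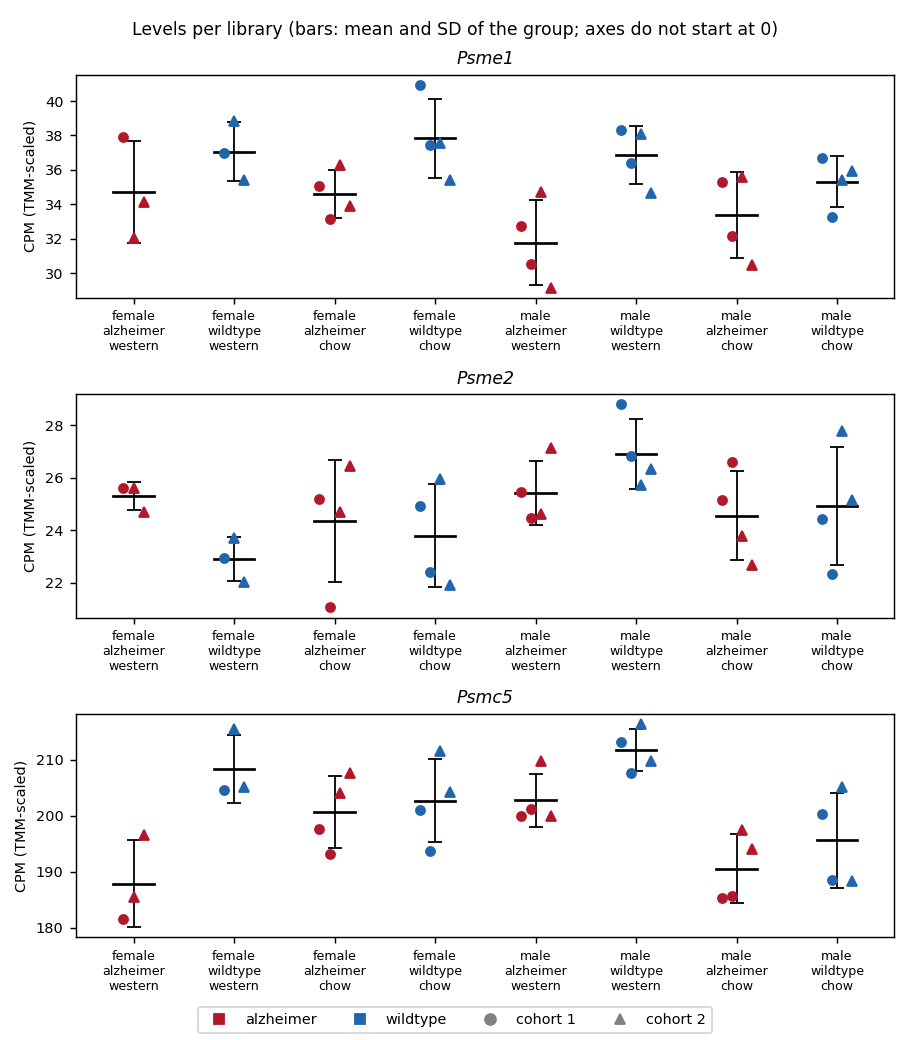
Level of Psme1, Psme2 and Psmc5 in each library in CPM after TMM scaling, by group, with alzheimer libraries in red beside their wildtype libraries in blue, circles for cohort 1 and triangles for cohort 2, and bars for the group mean and SD. The alzheimer mean of Psme1 lies under the wildtype mean in all 4 pairs, Psme2 shows no such order, and Psmc5 differs most in females on western diet (187.9 against 208 CPM).

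The genes that cut and gate gave no call. Psmb5, which carries the site that cuts after bulky residues, averaged 118 ± 9.12 CPM in alzheimer rats and 121 ± 6.76 CPM in wildtype rats (SD, n = 15 each), with a log2 fold change of −0.037 ± 0.034 (adjusted p = 0.585). Psmb7, which cuts after basic residues, averaged 179 ± 8.69 CPM in alzheimer rats and 181 ± 6.73 CPM in wildtype rats, at −0.0094 ± 0.024 (adjusted p = 0.871). Among alpha genes Psma7 had the lowest estimate, with 131 ± 5.86 CPM in alzheimer rats and 137 ± 5.30 CPM in wildtype rats, at −0.063 ± 0.024 (adjusted p = 0.106), and the other 6 ran from −0.042 (Psma6) to 0.042 (Psma1). The beta genes, which form the inner rings, ran from −0.047 (Psmb2) to −0.0067 (Psmb1), so all 6 estimates were negative and every 95% interval took in 0. In the cap, the ubiquitin receptor Psmd4 averaged 114 ± 4.68 CPM in alzheimer rats and 118 ± 4.78 CPM in wildtype rats, at −0.047 ± 0.021 (adjusted p = 0.168). Psmd14, which strips ubiquitin from the substrate, stood at −0.027 ± 0.023 (adjusted p = 0.547). The highest of the 11 other cap genes was Psmd6, a lid subunit, with 135 ± 6.51 CPM in alzheimer rats and 132 ± 6.63 CPM in wildtype rats, at 0.039 ± 0.020 (adjusted p = 0.236). The scaffolds Psmd1 and Psmd2 stood at 0.029 ± 0.017 (adjusted p = 0.330) and −0.0020 ± 0.017 (adjusted p = 0.967).

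The chaperones lay farthest apart. Psmd5, which holds part of the ATPase ring during assembly and keeps it off the core, averaged 35.0 ± 1.86 CPM in alzheimer rats and 32.9 ± 2.40 CPM in wildtype rats (SD, n = 15 each). Its log2 fold change was 0.088 ± 0.030 (adjusted p = 0.0674), higher in 14 of 15 and not called. Of the 30 fits without a library, it passed only without male wildtype chow library 7 (0.10, adjusted p = 0.0222) or female wildtype western library 12 (0.10, adjusted p = 0.0376). Among the 11 other settings it passed only with limma-voom (0.093, adjusted p = 0.0420). Psmg4, a chaperone of the alpha ring, averaged 14.4 ± 1.32 CPM in alzheimer rats and 15.5 ± 1.13 CPM in wildtype rats, at −0.11 ± 0.046 (adjusted p = 0.131). Psmb11 stood at −0.091 ± 0.18 (adjusted p = 0.827), and its interval, −0.45 to 0.27, was the widest of all members in this comparison.

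**Figure D2:**
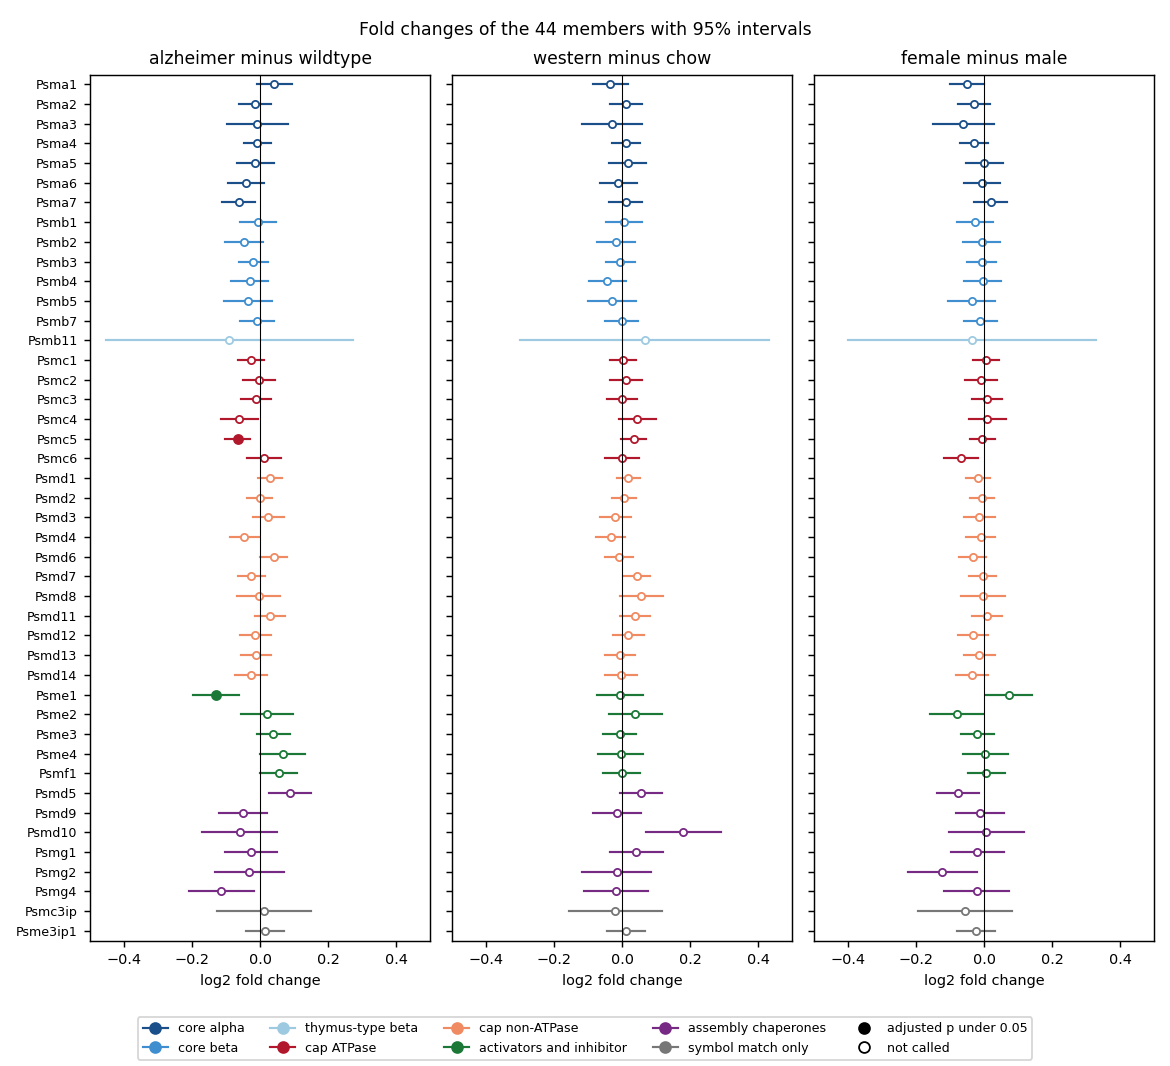
Log2 fold change of each of the 44 members with its 95% interval, for alzheimer minus wildtype, western minus chow and female minus male, coloured by role, with filled points for an adjusted p under 0.05. The filled points are Psme1 and Psmc5 in the genotype panel, and the other panels have none.

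Genes around the proteasome were read from the same fit. The immune subunits gave no call: Psmb8 was at −0.022 ± 0.091, Psmb9 at −0.12 ± 0.11 and Psmb10 at −0.055 ± 0.036, and 0 of these 3 reached an unadjusted p under 0.05. Together they summed to 27.1 to 32.1 CPM in alzheimer rats and 27.02 to 34.1 CPM in wildtype rats. Of 15 tested partners of the particle (of 18 listed), 0 were called by edgeR and 2 had an unadjusted p under 0.05, both higher, the deubiquitinase Usp14 at 0.053 ± 0.022 (adjusted p = 0.137) and Zfand2a, a stress-induced binder of the cap, at 0.072 ± 0.028 (adjusted p = 0.121). Of 7 genes of transcription control, 0 were called and 0 had an unadjusted p under 0.05, and Nfe2l1, the factor that raises proteasome genes when the proteasome is inhibited, stood at −0.0099 ± 0.022. The Vcp complex (6 tested) and the heat shock genes (11) had 0 called and 0 with an unadjusted p under 0.05, and the cytosolic chaperonin (8) had 0 called and 2 with an unadjusted p under 0.05, Tcp1 at 0.053 ± 0.023 and Cct6a at 0.041 ± 0.019. DESeq2 and limma-voom also called 0 genes on each of these lists.

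Among genes for ubiquitin itself, Rps27a, which encodes ubiquitin fused to a ribosomal protein, fell. It averaged 215 ± 8.54 CPM in alzheimer rats and 228 ± 11.5 CPM in wildtype rats (SD, n = 15 each), a log2 fold change of −0.086 ± 0.021 (adjusted p = 0.00982), lower in 13 of 15. The call of Rps27a was lost with 2 surrogate variables in the fit and in either cohort alone. Ubb, a gene for a chain of ubiquitins, did not pass, at −0.033 ± 0.020 (adjusted p = 0.356). Of 9 genes of the COP9 signalosome, a relative of the cap's lid, 1 rose: Cops2 averaged 104 ± 4.82 CPM in alzheimer rats and 99.1 ± 5.02 CPM in wildtype rats, at 0.073 ± 0.021 (adjusted p = 0.0242), higher in 13 of 15. The call of Cops2 was lost in 5 of 11 alternatives (with no filter, no cohort term or 2 surrogate variables, and in either cohort alone) and in 3 of 30 fits without a library (female wildtype western library 17 and female alzheimer western libraries 18 and 21), where it was 0.065 to 0.067 (adjusted p up to 0.0706).

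Markers of other cells moved with genotype as well. Of 50 tested markers on 14 lists, 9 fell and 1 rose by edgeR. Of 5 microglial markers 2 fell, Aif1 (−0.19) and Itgam (−0.40), and the other 3 did not pass, with Cx3cr1 at −0.058, P2ry12 at 0.038 and Tmem119 at 0.047. Among vascular lists, endothelial markers fell in 2 of 4 (Cldn5 and Flt1, each −0.11) and pericyte markers in 2 of 4 (Rgs5, −0.24, and Abcc9, −0.33). The others that fell were Slc1a3 of astrocytes (−0.12), Mbp of oligodendrocytes (−0.19) and Wfs1 of CA1 neurons (−0.20). Of 5 neuronal markers, with a median of −0.012, Syt1 rose (0.10), and Map2 (0.070), Snap25 (−0.012), Rbfox3 (−0.026) and Stmn2 (−0.059) did not pass. DESeq2 did not call Mbp and limma-voom did not call Flt1, and both also called Gja1 of astrocytes. The summed microglial level was 89.7 to 117 CPM in alzheimer rats and 98.3 to 124 CPM in wildtype rats, and the endothelial sum 189.7 to 242 CPM in alzheimer rats and 192 to 275 CPM in wildtype rats. Their part in the changes of Psme1 and Psmc5 was not tested. In bulk tissue, fewer cells of a type and less RNA per cell cannot be told apart.

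Within the diets and sexes the genotype calls by edgeR were fewer. On western diet edgeR called 1 member, Psmc5 at −0.11 ± 0.026 (adjusted p = 0.0191), where 3.17% of all tested genes were called. DESeq2 and limma-voom each called 2 members there, Psmc5 and Psme1. Psmc5 had 182, 185 and 197 CPM in alzheimer females, against 205, 205 and 215 CPM in wildtype females. In males it had 199.9, 200.02, 201 and 209.8 CPM in alzheimer rats, against 208, 209.8, 213 and 216 CPM in wildtype rats. Females did not overlap, and in males 1 alzheimer library reached into the wildtype range. The call was lost without female alzheimer western library 11 or 18 or female wildtype western library 17, at adjusted p up to 0.0677. On chow 0 members were called by edgeR, DESeq2 and limma-voom (0.901% of all tested genes by edgeR), with 1 at an unadjusted p under 0.05. In females 0 were called (2.57% of all tested genes), with 4 at an unadjusted p under 0.05 and 1 called by DESeq2 (Psmc5 at −0.082), and in males 0 (1.25% of all tested genes), with 6 and with 0 called by DESeq2 and limma-voom. The interaction of genotype with diet, with sex and with both together had 0 members called by edgeR, DESeq2 and limma-voom and 0% of all tested genes, with 2, 1 and 1 members at an unadjusted p under 0.05, so no genotype difference was shown to depend on diet or sex. Of all tested genes, 225 were positive and 221 negative at that unadjusted p with diet. With sex they were 264 and 264, and with both 307 and 316. For Psmc5 the change of the genotype difference with diet was −0.080 ± 0.036 (adjusted p = 0.9999).

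Diet moved no member past the test. By edgeR, DESeq2 and limma-voom, 0 members were called between western diet and chow, where 0.00797% of all tested genes (1 gene) were called, and 2 members were higher and 0 lower at an unadjusted p under 0.05, against 292 and 404 of all tested genes. The median log2 fold change was −0.00094 over the members, against −0.00064 over all tested genes. Of the members 42 of 44 intervals lay within ±0.2, against 71.9% of all tested genes, again with no allowance for level. Psmd10, an assembly chaperone also called gankyrin, had the largest estimate at 0.18 ± 0.054 (adjusted p = 0.822). It had 7.06 CPM in the lowest, 8.13 in the median and 8.59 in the highest of 14 western libraries, against 5.89, 6.92 and 8.57 CPM in 16 chow libraries, and the groups overlapped. Its means were 7.86 ± 0.393 CPM on western diet (n = 6) and 7.19 ± 0.854 CPM on chow (n = 8) in females, and 8.04 ± 0.499 CPM on western diet and 6.86 ± 0.635 CPM on chow in males (n = 8 each). Psmb11 at 0.066 ± 0.18 and the lid subunit Psmd8 at 0.056 ± 0.031 came next, and the lowest were Psmb4 at −0.044 ± 0.026, Psma1 at −0.035 ± 0.025 and Psmd4 at −0.033 ± 0.021. Within alzheimer and within wildtype rats 0 members and 0% of all tested genes were called, with 3 and 1 members at an unadjusted p under 0.05, and DESeq2 and limma-voom called 0 in either. Of all tested genes, 206 were higher and 282 lower at that unadjusted p within alzheimer rats, and 318 and 335 within wildtype rats.

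Sex gave no call either, with 0 members by edgeR, DESeq2 and limma-voom against 0.837% of all tested genes, and 1 member higher and 5 lower in females at an unadjusted p under 0.05, against 960 and 896 of all tested genes. The median was −0.013 over the members, 34 of 44 negative, against −0.0024 over all tested genes, 6490 of 12547 negative. The lowest estimates were Psmg2, a chaperone of the alpha ring, at −0.12 ± 0.050 (14.3 ± 1.12 CPM in females, n = 14, and 15.5 ± 1.40 CPM in males, n = 16; adjusted p = 0.225), Psme2 at −0.081 ± 0.038 (adjusted p = 0.320) and Psmd5 at −0.079 ± 0.030 (adjusted p = 0.202). The ATPase Psmc6 stood at −0.069 ± 0.025 (adjusted p = 0.167). The highest was Psme1 at 0.073 ± 0.033, with 36.1 ± 2.40 CPM in females and 34.3 ± 2.72 CPM in males (adjusted p = 0.298). Next were Psma7 at 0.018 ± 0.024 and Psmc4 at 0.0093 ± 0.027.

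Where diet and sex met, most members had estimates of the same sign. The diet by sex interaction is the western minus chow difference in females less that in males, and its median was −0.062 over the members, with 36 of 44 negative, against −0.0044 over all tested genes, with 6470 of 12547 negative. In females 30 of 44 members had a negative western minus chow estimate, with a median of −0.027, against 6471 of 12547 tested genes and −0.0034. In males 33 of 44 members had a positive one, with a median of 0.035, against 6234 of 12547 tested genes and −0.00058. All 7 alpha genes, all 6 ATPases, 5 of 6 beta genes and 10 of 11 other cap genes had a negative interaction. So had 3 of 5 activators and inhibitors and 4 of 6 chaperones. The members were measured in the same libraries and varied together in part, so their signs are not separate evidence. At an unadjusted p under 0.05, 2 members were positive and 9 negative, against 993 and 848 of the 12547 tested genes. Of the members 1 passed the adjusted test, Psmc5, where 1.23% of all tested genes were called. The median over the members was −0.045 in cohort 1 and −0.077 in cohort 2.

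Psmc5 had 182 CPM in the lowest, 201 in the median and 215 in the highest of 6 western females, against 193, 203 and 211 CPM in 8 chow females, and 199.9, 209 and 216 CPM in 8 western males, against 185, 191 and 205 CPM in 8 chow males. Of the western females 3 of 6 lay above the chow mean of their genotype, and all 8 western males did. The means were 198 ± 12.8 CPM on western diet and 202 ± 6.49 CPM on chow in females, and 207 ± 6.24 CPM on western diet and 193 ± 7.34 CPM on chow in males (SD). The interaction was −0.14 ± 0.036 (95% interval −0.21 to −0.064; adjusted p = 0.0490), and it lay close to the threshold. It was −0.14 in either cohort alone (adjusted p = 0.471 in cohort 1 and 0.426 in cohort 2). The call was lost in 21 of 30 fits that left out a library, with adjusted p from 0.0338 to 0.0997, and in 8 of 11 other settings.

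The diet difference of Psmc5 was −0.035 ± 0.026 in females (adjusted p = 0.714) and 0.10 ± 0.024 in males (adjusted p = 0.0673). Within females 0 members were called by edgeR (0.183% of all tested genes), with 1 higher and 3 lower at an unadjusted p under 0.05 and 0 called by DESeq2 and limma-voom. Within males 0 were called by edgeR (0.128% of all tested genes), with 6 at an unadjusted p under 0.05, all higher, and DESeq2 called 1, Psmc5. Of all 12547 tested genes, 593 were higher and 606 lower at that unadjusted p in females, and 642 and 734 in males. After Psmc5 the lowest p-values in the interaction, none of them called, were those of the lid subunit Psmd13 at −0.14 ± 0.045 (adjusted p = 0.127), Psme4 at 0.17 ± 0.065 (adjusted p = 0.212), the ATPase Psmc1 at −0.098 ± 0.038 (adjusted p = 0.217) and the core subunit Psmb4 at −0.13 ± 0.053 (adjusted p = 0.218), chosen after their values were seen. The largest estimate was that of Psmb11, whose counts were few, at 0.59 ± 0.36 (adjusted p = 0.471). Psmd13 averaged 123 ± 3.59 CPM on western diet and 130.4 ± 5.71 CPM on chow in females, and 131 ± 6.83 CPM on western diet and 126 ± 3.74 CPM on chow in males. Psmb4 averaged 138 ± 9.43 CPM on western diet and 149.7 ± 3.27 CPM on chow in females, and 146 ± 10.4 CPM on western diet and 143 ± 7.07 CPM on chow in males.

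Markers moved in the same interaction. Of the 50 tested markers 2 were called by edgeR, both lower, P2ry12 of microglia at −0.46 ± 0.11 (adjusted p = 0.0236) and Cldn5 of endothelium at −0.26 ± 0.055 (adjusted p = 0.0107). DESeq2 and limma-voom also called Drd1 of striatum, at −0.52 ± 0.14 by edgeR (adjusted p = 0.0545), and DESeq2 called Cx3cr1 of microglia, at −0.30 ± 0.082 by edgeR (adjusted p = 0.0625). Microglial Tmem119 had the other sign, at 0.28 ± 0.12 (adjusted p = 0.247). The medians were −0.24 over 5 microglial, −0.21 over 4 endothelial, −0.20 over 5 oligodendrocyte and 0.071 over 5 neuronal markers. On the other lists they were −0.40 for ependyma, −0.12 for striatum and −0.063 for pericytes and smooth muscle. They were 0.0092 for astrocytes, 0.014 for oligodendrocyte precursors, 0.018 for choroid plexus and 0.019 for dentate granule cells. For interneurons, CA1 neurons and blood they were 0.058, 0.089 and 0.24. The endothelial sum was 189.7 to 260 CPM in western females and 225 to 270.2 CPM in chow females, and 209.5 to 275 CPM in western males and 192 to 242 CPM in chow males. Library totals averaged 18.8 ± 2.23 M in western and 20.02 ± 4.996 M in chow females, and 18.1 ± 1.74 M in western and 16.7 ± 1.77 M in chow males (SD). The part of these markers in the interaction was not tested. With the log of the library total in the fit, the interaction of Psmc5 was −0.14 (adjusted p = 0.0656). The gene after Psmc5, Smarcd2, was called the other way at 0.43 ± 0.096 (adjusted p = 0.0171).

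**Figure D3:**
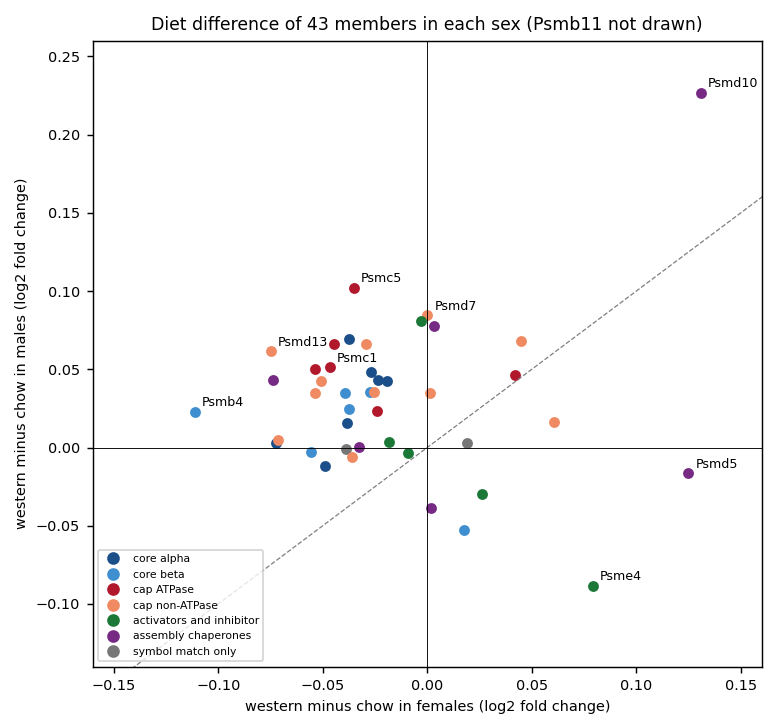
Western minus chow log2 fold change of 43 members (without Psmb11) in females on the horizontal axis and in males on the vertical axis, coloured by role, with the dashed line where both are equal. Most points lie above the line, with 30 of 44 members negative in females and 33 of 44 positive in males, and errors are not drawn. Of 12547 tested genes, 6471 were negative in females and 6234 positive in males.

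Most members varied little between libraries. After group and cohort were removed, the median SD was 0.065 log2 over the members and 0.117 over all tested genes, and 39 of 44 members lay under that median, with no allowance for the level of the genes compared. Psmd1, a scaffold of the cap, was the steadiest at 0.034, followed by Psmd2 and Psmc5, each 0.038, and Psma4 at 0.040. The most variable were Psmb11 at 0.48, where counts were few, and Psmc3ip at 0.15. Of the catalytic genes Psmb5 varied at 0.11 and Psmb7 at 0.065.

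What variation remained was shared in part. The first component took 23.3% of the scaled variance of 43 members, and 37 of them had the same sign on it, with the largest loadings for Psmb5, Psmb1, Psmb7 and Psmc2 and the opposite sign for Psme4, Psmc5, Psme1, Psma3, Psmd1 and Psmc3ip. The mean of the 13 core genes and the mean of the 17 cap genes, both after removal of group and cohort, went together over the 30 libraries (Pearson's r = 0.807, Spearman's rho = 0.804, permutation p = 1e-05 for each, the smallest that 100000 resamples can give, 1 relation tested). Without the 2 libraries farthest out in core level, male alzheimer chow library 25 and female wildtype western library 17, r was 0.771. It was 0.690 over the 14 libraries of cohort 1 and 0.880 over the 16 of cohort 2. The points share a library, its scaling and its depth, and the residual means moved little, with an SD of 0.031 log2 for core and 0.022 for cap. The permutation shuffled residuals freely over all libraries, although the removal of group and cohort ties them together, so its p is approximate. No other set of genes was compared, so the relation is not shown to be particular to the proteasome.

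**Figure D4:**
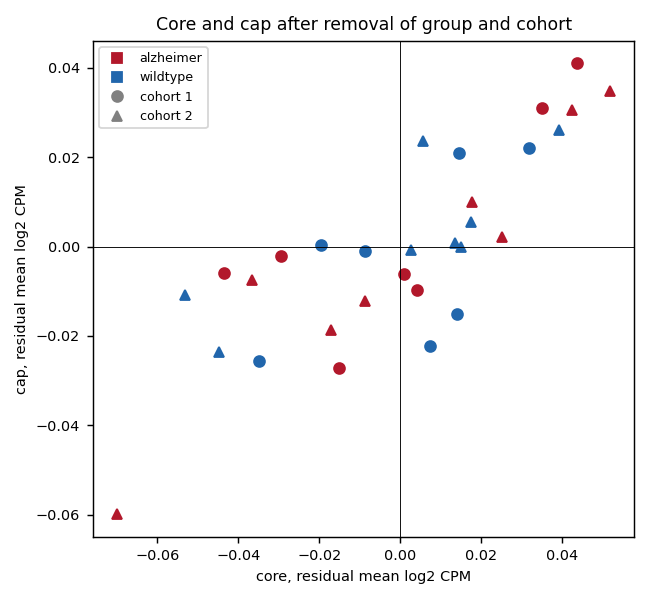
Residual mean log2 CPM of the 13 core genes (horizontal) and the 17 cap genes (vertical) in each of the 30 libraries after removal of group and cohort, in red for alzheimer and blue for wildtype, circles for cohort 1 and triangles for cohort 2. Points run from low on both axes to high on both, and the library at the lower left is male alzheimer chow library 25.

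Across groups the class means moved within narrow bounds. Set against the mean of all libraries, the core mean was lowest in female alzheimer western rats, at −0.044 ± 0.044 log2 (SD, n = 3), and highest in male wildtype western rats, at 0.036 ± 0.043 (n = 4). The cap mean was lowest in male alzheimer chow rats, at −0.031 ± 0.050 (n = 4), and highest in male wildtype western rats, at 0.036 ± 0.027 (n = 4). In single libraries both classes were lowest in male alzheimer chow library 25, at −0.10 for core and −0.095 for cap, and highest in male wildtype western library 2, at 0.080 and 0.062. Neighbouring groups in either order differed by less than the larger of their SDs, which ranking the means makes likely. Differences of class means between groups, the lowest and highest included, were not tested.

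**Figure D5:**
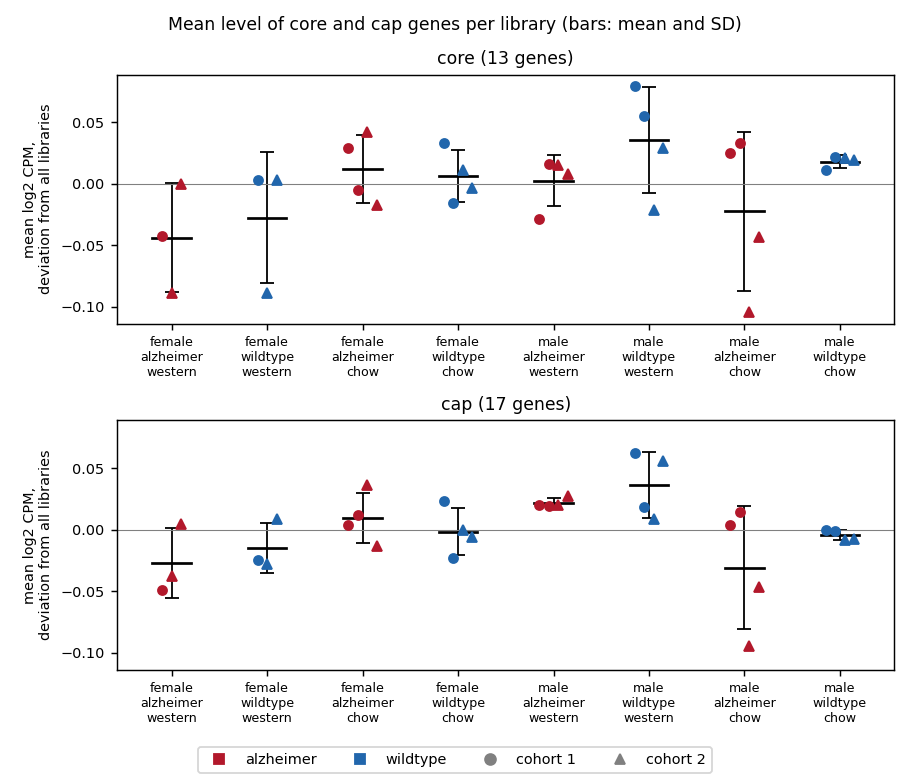
Mean log2 CPM of 13 core genes (above) and 17 cap genes (below) in each library, as deviation from the mean over all libraries, by group, with alzheimer in red left of wildtype in blue, circles for cohort 1, triangles for cohort 2, and bars for the group mean and SD. All libraries lie between −0.10 and 0.080 for core and between −0.095 and 0.062 for cap.

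Cohort 2 against cohort 1 had 0 members called by edgeR, where 0.0877% of all tested genes were called, and 4 members had an unadjusted p under 0.05, 2 of them higher. Of all 12547 tested genes, 857 were higher and 718 lower at that unadjusted p.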

How the data were processed

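Polyadenylated RNA from frozen dorsal hippocampus of rats was sequenced in 30 libraries, per the labels. The deposited values are raw counts by gene symbol, whole numbers with unequal column totals, and each column was matched to its sample by the description. Per the submitters' processing notes, reads were trimmed with cutadapt and aligned with STAR 2.7.0a. The sources used here do not give the counting tool, strand setting, build or annotation, and overlapping genes and copies may share reads. No sequence of the reads was used, and promoters and neighbours come from RefSeq's table for GRCr8.

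The model in edgeR 4.0.16 (R 4.3.3) had a coefficient for each of 8 groups and another for cohort. Low genes were removed by filterByExpr (minimum count 10, minimum total 15), which left 12547 of 17455, and libraries were scaled by TMM. Tests were two-sided quasi-likelihood F tests with Benjamini-Hochberg adjustment over all tested genes, and adjusted p under 0.05 is called. Values of CPM are after TMM, log2 CPM used a prior count of 2, and errors of fold changes are standard errors (the change divided by the square root of F). Counts such as 13 of 15 compare each library with the mean of the groups' counterpart of its sex and diet. Alternatives were DESeq2 1.42.0, limma 3.58.1 (voom with quality weights), surrogate variables from sva 3.50.0, other scaling and filters, and leaving out cohorts or libraries. The fit was also run on simulated counts, with genotype changes set in some genes and no diet, sex or cohort difference. Each gene was drawn on its own, so that run does not cover true interactions or members that vary together.

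The members, the gene lists and the tests were chosen with earlier results of these data known. Genes named in the text were every member called in genotype, diet or sex, the 3 largest estimates in each direction of these, a fixed set of catalytic, receptor, ATPase and activator genes, and called genes of the lists. Others are said to be chosen after their values were seen, or stand as extremes of a range. The labels do not say that each library is a separate animal, so p-values measure the spread between libraries. No 2 libraries agreed within sampling noise (chi-square per degree of freedom at least 2.89). Some listed genes are not reported here.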

Additional observations from a re-analysis of the deposited data

Results flagged for a closer look

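The values of Psme1, Psme2, Psmc5, Psmd5, Psmb8, Psmb9 and Psmb10 and the class means were checked for a lone library in each group of 4. Of 66 groups of values in all, 4 stood apart, where chance gives about 1 in 20. Other genes named in the text were not checked in this way. Psmc5 in male alzheimer western library 23 was at 209.8 CPM, above the other 3 libraries, which lay between 199.9 and 201 CPM. Psmd5 in male wildtype chow library 7 was at 38.5 CPM, the highest wildtype value. Without that library the genotype change of Psmd5 was 0.10 (adjusted p = 0.0222), against 0.088 with all libraries (adjusted p = 0.0674). Psmb9 in female alzheimer chow library 10 was at 4.49 CPM. The cap mean in male alzheimer western library 28 was 0.028 log2 above the mean of all libraries, in a group whose other 3 libraries each lay 0.020 above it.

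The western minus chow difference of Psmc5 differed between females and males by −0.14 log2 (edgeR's interaction test, adjusted p = 0.0490). Its estimate was negative in females and positive in males, and edgeR called neither. The call of the interaction was lost in 21 of 30 fits without a library and in 8 of 11 other settings.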

How the results depend on the processing

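Over the alternatives and the 30 fits without a library, 5576 values of members were recomputed, which are those of every member for genotype, diet and sex, of Psmc5 for diet by sex and for diet in males, and of Psmc5 and Psme1 for genotype on western diet. Of these, 5188 kept their side of the threshold and direction, 42 lost a call, 12 gained one, 334 changed sign but were called in neither fit, and 0 called values reversed. Most of these values were not called in the main fit, so keeping their side was likely from the start. All 42 lost calls fell on the results called there. These were Psme1 and Psmc5 for genotype, and Psmc5 for genotype on western diet and for diet by sex. Psme1 and Psmc5 kept their genotype calls in all 30 fits without a library, with adjusted p up to 0.0290 and 0.0376, and each lost its call in 3 of 11 alternatives, with 2 surrogate variables and in either cohort alone. With 2 surrogate variables 1 member was called lower between genotypes (Psmc4 in place of Psme1 and Psmc5), and 0 with cohort 1 or cohort 2 alone, where fewer libraries were fitted. Members called higher between genotypes numbered 1 with limma-voom (Psmd5) and 0 to 1 without a library. For sex, 1 was called lower in cohort 1 alone (Psmc6, −0.16). The diet by sex count was 0 with no filter, limma-voom, no cohort term, 2 surrogate variables, the log2 library total, either cohort alone, or without the 3 libraries highest for choroid plexus markers (chosen after seeing the data), and 0 to 1 without a library; the cause was not tested. On western diet the genotype count was 2 with DESeq2 and limma-voom (Psmc5 and Psme1), 0 with 2 surrogate variables or either cohort alone, and 0 to 2 without a library, and without the choroid plexus libraries or female alzheimer western library 11 it was Psme1 in place of Psmc5. The count was 1 with DESeq2 for genotype in females and for diet in males (Psmc5 in both), and 0 to 1 without a library for genotype in males (Psmd4 without male alzheimer chow library 8) and diet in males (Psmc5 without male alzheimer western library 28). No paired analysis was possible because the running numbers in the titles are not shared between groups.

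Psmb11, Psmb8 and Psmb9 rest on few counts, and their intervals were wide. In cohort 1 each female western group has 1 library.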
